A study of Homo sapiens with 6 samples.

Results

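Open chromatin was examined at 10 genes of the BCL2 family in SK-N-AS (SKNAS in the labels), a human neuroblastoma cell line, by ATAC-seq, in which the transposase Tn5 cuts accessible DNA. The genes were BCL2, BCL2L1, BCL2L2, MCL1, BAX, BAK1, BCL2L11, BBC3, PMAIP1 and BID, of 20007 protein-coding genes in the annotation. Every deposited peak that overlapped a gene body or lay within 10 kb of either end was assigned to the gene. Peaks of the 6 libraries that shared at least 1 base were merged, which gave 228 regions at these genes of 373067 in all, and 29 of the 228 held a peak in every library, of 24147 such regions genome-wide. Naïve cells came from an SK-N-AS xenograft of a vehicle-treated mouse. R1 and R2 cells came from xenografts that had relapsed for the second time under indisulam, a compound that directs the splicing factor RBM39 to degradation, and were collected during the third treatment cycle. Each group had 2 libraries of 100000 cells, the cultures themselves received no drug, and the labels give neither the age nor the strain of the mice. The methods name 2 resistant cell lines, so that R1 and R2 are each 1 culture, and a difference between naïve, R1 and R2 cannot be told apart from a difference between single tumors. Nothing in the labels says that the 2 libraries of a group were separate cultures, and p-values then measure only the spread between these libraries.

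The BCL2 family controls the release of cytochrome c from mitochondria, the committing step of intrinsic apoptosis. BAX and BAK1 are the effectors that open the outer mitochondrial membrane, and BCL2, BCL2L1 (BCL-XL), BCL2L2 (BCL-W) and MCL1 are the guardians that hold them in check. The BH3-only proteins BCL2L11 (BIM), BBC3 (PUMA), PMAIP1 (NOXA) and BID carry stress signals to the guardians and effectors. Neuroblastoma cells are known to rely on BCL2, BCL-XL or MCL1 for survival, and PUMA, NOXA and BAX are classical p53 target genes.

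The libraries differed in depth. The R1 lists held 340558 and 292030 peaks, the naïve lists 154926 and 115694, and the R2 lists 67558 and 73484, and the background recovered from the lists was 7.94 and 5.43 tags in R1, 2.29 and 1.35 in naïve and 0.850 and 0.899 in R2. Peak strength is therefore given as a percentile among the 24147 regions shared by all 6 libraries, with 100 the strongest, and in tags at the summit. Of 7 markers of adrenergic neuroblastoma cells, 3 to 5 per library had a start among the 20000 strongest peaks, with GATA3 and HAND2 in every library, as had 3 to 5 of 8 mesenchymal markers, with FOSL1, FOSL2 and VIM in every library. None of 3 endothelial markers did, and of 4 blood markers only SPI1 did, in both R1 libraries. Among 3 epithelial markers, EPCAM or KRT8 or both did in each library.

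Among the guardians, the starts of BCL2L1, BCL2L2 and MCL1 were among the stronger shared regions in all 6 libraries, and that of BCL2 was weaker and more variable. At the BCL2L1 start (chr20:31718707-31724640, hg38), the percentiles were 85.9 and 90.3 in naïve, 98.0 and 98.4 in R1, and 93.0 and 90.9 in R2. All 4 resistant libraries lay above both naïve libraries, and R1 lay above R2. At the strongest BCL2L2 start (chr14:23300677-23303070), which overlaps the starts of HOMEZ and PPP1R3E as well, they were 92.3 and 90.3 in naïve, 95.2 and 91.7 in R1, and 93.0 and 94.7 in R2. R1 overlapped both other groups, and both R2 values lay above both naïve ones. The canonical BCL2L2 start lies in another region (chr14:23306373-23307300), with 64.3 and 62.3 in naïve, 57.3 and 52.3 in R1, and 63.7 and 45.3 in R2. For MCL1 (chr1:150578446-150580249), the start stood at 88.3 and 87.3 in naïve, 79.6 and 84.1 in R1, and 83.7 and 76.0 in R2. MCL1, a short-lived guardian of which the cell needs constant synthesis, was the gene whose start lay lower in all 4 resistant libraries than in both naïve libraries. At the BCL2 start (chr18:63319555-63321306), the percentiles were 74.0 and 54.4 in naïve, 72.0 and 76.1 in R1, and 40.2 and 57.3 in R2, with overlapping groups.

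**Figure D1:**
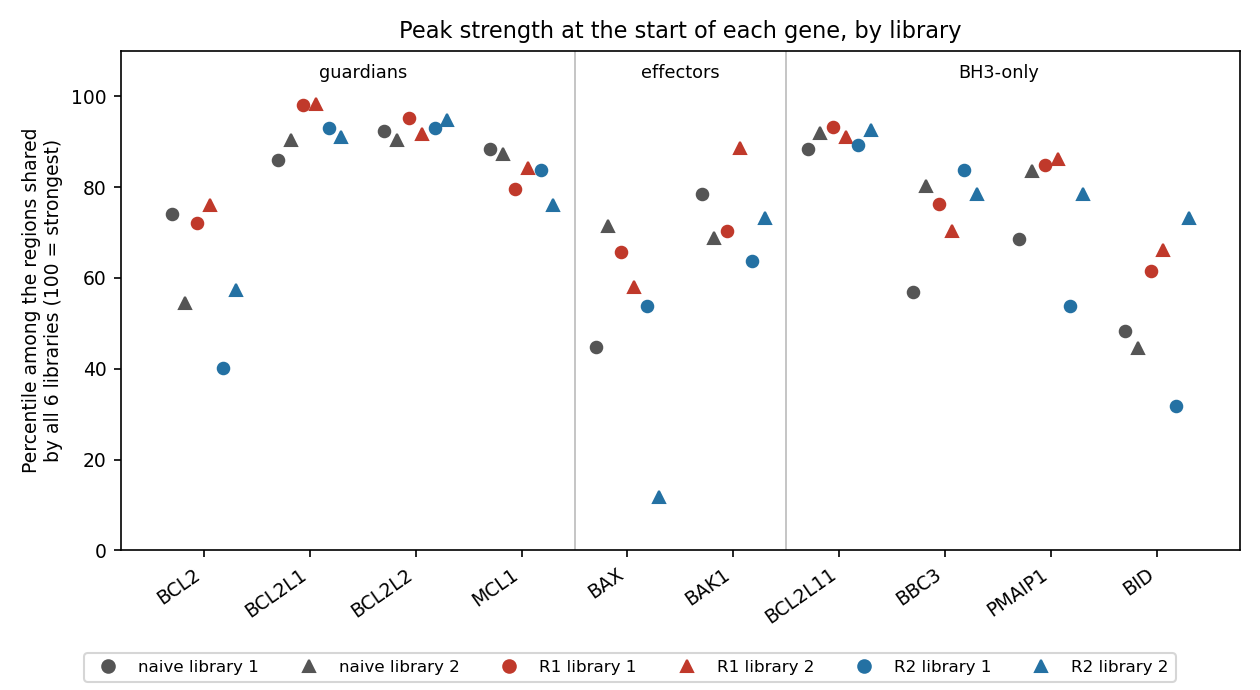
Percentile of the start region of each gene among the 24147 regions shared by all 6 libraries (y axis, 100 = strongest), for each gene (x axis), with 1 point per library and the genes ordered by role. The BCL2L1, BCL2L2 and BCL2L11 points all lie above 85, and the BAX and BID points spread widely within R2.

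By group mean, the effectors had weaker starts than BCL2L1, MCL1 and the strongest BCL2L2 start, while BAK1 lay above BCL2. BAX (chr19:48954442-48956578) stood at 44.8 and 71.5 in naïve, 65.7 and 57.9 in R1, and 53.7 and 11.7 in R2. Within R2, the libraries differed by more than any pair of group means did, and at 9 to 25 tags per library in naïve and R2 the counting error is large: the 9 tags of the second R2 library have an exact 95% Poisson interval of 4.12 to 17.1. BAK1 (chr6:33576645-33580754) stood at 78.5 and 68.8 in naïve, 70.2 and 88.5 in R1, and 63.7 and 73.2 in R2, and all 6 summits lay within 30 bases of the RefSeq start. The naïve values overlapped those of R1 and of R2 for both effectors, and R1 lay above R2 for BAX only.

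The BAX promoter is shown for its E-boxes, the CACGTG sites that MYC and other basic helix-loop-helix factors can bind. SK-N-AS is driven by C-MYC, as the study describes it. The RefSeq promoter, 250 bases before the start and 50 after it, held 4 E-boxes, at -138, -93, -45 and -14 from the start, and 7.26% of 35116 RefSeq promoters held at least 1. All 6 summits lay in the promoter, between -170 and 37. The stretch chr19:48954625-48954814 (hg38, plus strand) is printed, which ends where the first annotated exon begins and holds the 2 upstream E-boxes and 2 CCAAT boxes (CCAAT, read on either strand) in capitals.
BAX promoter: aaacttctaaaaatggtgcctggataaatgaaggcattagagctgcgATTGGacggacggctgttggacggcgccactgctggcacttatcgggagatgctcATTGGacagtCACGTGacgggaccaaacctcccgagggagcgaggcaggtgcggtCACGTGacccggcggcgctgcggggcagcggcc

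Of the BH3-only genes, BCL2L11 had the strongest and steadiest start. BCL2L11 (chr2:111118347-111123512) stood at 88.3 and 91.9 in naïve, 93.3 and 91.1 in R1, and 89.3 and 92.6 in R2. These 6 values span fewer points than those of any other start region here except BCL2L2. At the strongest BBC3 start (chr19:47225694-47229809), the values were 56.9 and 80.3 in naïve, 76.2 and 70.3 in R1, and 83.7 and 78.5 in R2, and the region of the canonical BBC3 start (chr19:47229880-47232065) was weaker, with 41.2 and 19.4, 38.6 and 53.1, and 47.5 and 37.9. PMAIP1 (chr18:59899349-59901090) stood at 68.6 and 83.5 in naïve, 84.9 and 86.2 in R1, and 53.7 and 78.5 in R2. BID (chr22:17769040-17776358) stood at 48.2 and 44.5 in naïve, 61.6 and 66.2 in R1, and 31.8 and 73.2 in R2. R1 lay above both naïve libraries for PMAIP1 and BID, while the R2 libraries overlapped the naïve ones for both genes. Such separation of R1 was common: among the family's 29 regions, R1 lay above both naïve libraries in 8 and below both in 7. R2 lay above both naïve libraries in 3 and below both in 3, and R1 and R2 did not overlap in 19. The matching shares over all shared regions are not given here.

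The PMAIP1 promoter is shown for the position of its summits. PMAIP1 had the most compact start region of the family, with all 6 summits between -111 and -81 from the RefSeq start, in a stretch where 3 GC boxes (GGGCGG, the site of SP1 and related factors, read on either strand) begin at -106, -94 and -82, with another at -146. At least 1 GC box is common, being present in 45.0% of RefSeq promoters. The 250 bases before the start (chr18:59899746-59899995, hg38, plus strand) are printed with GC boxes in capitals. The search for a p53 response element (a pair of p53 decamers) found none in the promoters of the 8 genes that RefSeq promoters were matched to by symbol, and 0.0285% of all promoters held 1, which says only that these letters are not in these windows. The genes not matched were BCL2L2 and MCL1.
PMAIP1 promoter: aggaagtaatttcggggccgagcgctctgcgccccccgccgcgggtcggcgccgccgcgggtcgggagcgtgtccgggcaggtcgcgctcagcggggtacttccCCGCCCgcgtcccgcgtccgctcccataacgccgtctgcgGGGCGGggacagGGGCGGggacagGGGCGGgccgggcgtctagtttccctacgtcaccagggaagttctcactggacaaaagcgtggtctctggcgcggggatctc

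The differences between groups were tested with limma on quantile-normalized log2(summit tags + 1) across the 24147 shared regions, with p-values adjusted over all of them and called under 0.05. In R1 against naïve, 2 of the 29 regions were called, the BCL2L1 start and a region in a BCL2 intron, beside 11.6% of all shared regions, and 7 had an unadjusted p under 0.05, beside 27.2%. In R2 against naïve, 0 of 29 were called by limma, against 3.37% of all regions, and 1 had an unadjusted p under 0.05, against 21.0% of all regions. Of all calls in R2, 67.0% were higher than naïve, and 79.1% under median scaling. In all 4 resistant libraries against naïve, 0 of 29 were called by limma, against 7.86%, and 3 had an unadjusted p under 0.05, against 25.0%. In R1 against R2, 1 of 29 was called, another BCL2 intron region, against 6.60% of all regions, and 9 had an unadjusted p under 0.05, against 22.3%. That region was lower in R1, and of all calls in this comparison only 27.6% were higher in R1. Away from protein-coding starts, where it lies, 10.3% of regions were called and 0.935% were called higher in R1. Naïve libraries are shared by the first 3 of these comparisons. By adjusted p, the share of the family's regions called was at or below that of all shared regions in each comparison. Their median log2 differences were 0.10 in R1 and -0.04 in R2 against naïve, beside 0.00 and -0.02 over all shared regions. The percentiles of all 4 resistant libraries lay above both naïve libraries in 1 of the 29 regions, the BCL2L1 start, against 12.7% of all regions, and below them in 1, the MCL1 start, against 14.9%. The MCL1 start was not called: it differed by -0.23 (log2, SE 0.15) between resistant and naïve, with an adjusted p of 0.38 by limma.

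**Figure D2:**
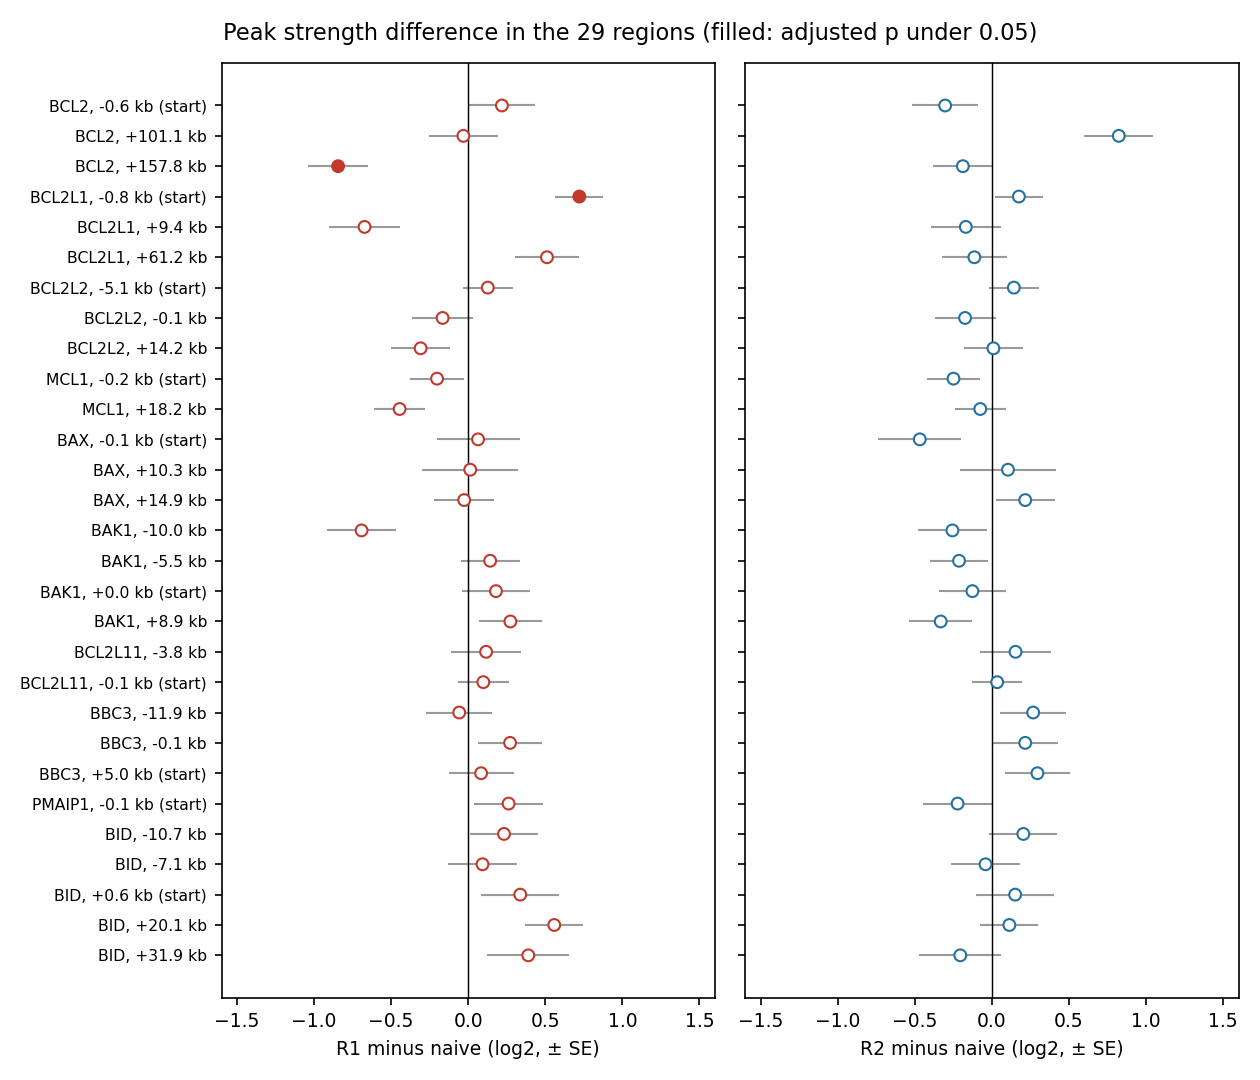
Log2 difference in normalized summit tags against naïve (x axes, left R1, right R2) for each of the 29 regions (y axis, gene and distance of the summit from the canonical start), with standard errors as bars and filled points for adjusted p under 0.05. The 2 filled points, both in R1, are the BCL2L1 start at 0.72 and the BCL2 region 157.8 kb downstream at -0.84.

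The other start regions gave values within about 2 standard errors of 0 in each comparison with naïve. In R1 against naïve, the log2 differences ran from -0.20 at MCL1 to 0.34 at BID, with BCL2 at 0.22, PMAIP1 at 0.26, BAK1 at 0.18, BCL2L2 at 0.13, BCL2L11 at 0.10, BBC3 at 0.08 and BAX at 0.06. In R2 against naïve, they ran from -0.47 at BAX to 0.29 at BBC3. None of these 9 was called by limma in any comparison, and a p above the threshold does not show that the groups were alike: the standard errors, 0.16 to 0.27, set the size of difference that could be seen.

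BCL2L1 rose in R1 and not, at the threshold, in R2. Its start region held 47 and 36 summit tags in naïve, 334 and 233 in R1, and 31 and 29 in R2. Divided by each library's background, these were 20.5 and 26.6 in naïve, 42.1 and 42.9 in R1, and 36.5 and 32.3 in R2, so that all 4 resistant values lay above the naïve ones and R1 was highest. The log2 difference was 0.72 (SE 0.16, adjusted p = 0.016, limma, n = 2 and 2) in R1 against naïve, 0.17 (SE 0.16, adjusted p = 0.56) in R2 against naïve, and 0.45 (SE 0.14, adjusted p = 0.069) in all resistant libraries against naïve. R1 exceeded R2 by 0.55 (SE 0.16, adjusted p = 0.064), short of the threshold. Under median scaling in place of quantile normalization, both the difference between R1 and R2 and that of all resistant libraries against naïve passed it (limma adjusted p = 0.040 and 0.042). The call in R1 did not hold without the first naïve library (adjusted p = 0.079), the first R1 library (0.15) or the second (0.19), where the lone library is taken to vary like the other groups.

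The sequence under the BCL2L1 summits is shown because all 6 libraries placed their summit there, within 71 bases of each other. The summits lay at -822 to -751 from the canonical start and 273 to 344 bases past an upstream RefSeq start, between 2 annotated first exons. The stretch chr20:31723530-31723734 (hg38, plus strand), 74.6% G or C, holds 3 GC boxes and 2 CCAAT boxes on either strand, in capitals. Of the 24147 shared regions, 49.0% held a GC box and 28.4% a CCAAT box in 300 bases around the summit.
BCL2L1 start: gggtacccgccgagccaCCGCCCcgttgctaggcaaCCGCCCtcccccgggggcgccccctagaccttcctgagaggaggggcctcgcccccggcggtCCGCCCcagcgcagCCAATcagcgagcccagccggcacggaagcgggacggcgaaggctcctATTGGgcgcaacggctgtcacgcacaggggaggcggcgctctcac

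BCL2L1 lies on chromosome 20, and it was compared with its neighbours there. Of 26 other regions within 1 Mb that lie at a protein-coding start, 23 had a higher mean percentile in the resistant than in the naïve libraries. The median neighbour moved by 22.2 percentile points in R1 and 10.3 in R2, and BCL2L1 by 10.1 and 3.89. Resistant libraries averaged 95.1 ± 3.67 (SD, n = 4) and naïve libraries 88.1 ± 3.13 (SD, n = 2) at BCL2L1, and 61.4 ± 2.34 and 46.5 ± 7.92 for the median neighbour. The difference between BCL2L1 and its neighbours thus changed by -7.96 points from naïve to resistant libraries (two-sided exact permutation p = 0.133, the smallest that 2 against 4 libraries allow). A percentile cannot pass 100, and BCL2L1 started near that end. On the scale of normalized log2 tags the sign turned, with BCL2L1 gaining 0.16 more than its neighbours (exact permutation p = 0.667), so neither direction can be drawn. In R1 against naïve, the median neighbour differed by 0.53 on that scale against 0.72 for BCL2L1, and 5 of the 26 neighbours had a larger difference.

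The rise was shared along the chromosome. Over all 493 start regions of chromosome 20, the median log2 difference in R1 against naïve was 0.47 and 23.3% were called higher by limma, against 0.06 and 6.44% for 12851 start regions elsewhere. In R2 the medians were 0.30 on chromosome 20 and -0.04 elsewhere. Among the nearest neighbours on either side, ID1, an inhibitor of basic helix-loop-helix factors, was higher in all 4 resistant libraries than in both naïve libraries, with 0.63 (SE 0.16, adjusted p = 0.032) in R1. COX4I2, MCTS2, TPX2 and MYLK2 had differences of 0.64, 0.59, 0.42 and 0.53 in R1 that were not called, and FOXS1 had -0.05. The part of the chromosome-wide rise in the BCL2L1 value was not tested.

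**Figure D3:**
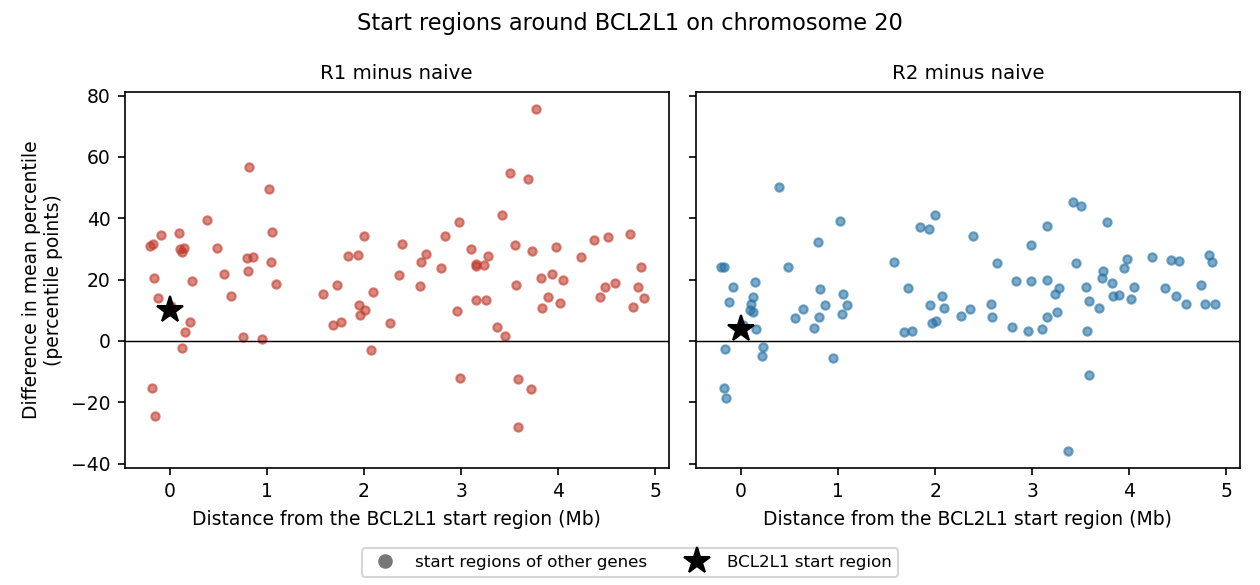
Difference in mean percentile against naïve (y axes, percentile points, left R1, right R2) of each start region within 5 Mb of the BCL2L1 start region (x axes, Mb, positive towards higher coordinates), with the BCL2L1 region as a star. Most of the 90 neighbours lie above 0 in both, and the star, at 10.1 and 3.89, lies below their medians of 21.0 and 14.6.

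BID, on chromosome 22, moved in mean by about as much as its neighbours. Its R2 libraries stood far apart, at 31.8 and 73.2, on either side of both naïve libraries. Its start region gained 17.5 percentile points in R1 and 6.11 in R2, and the median of its 15 neighbours gained 18.0 and 6.04. Of those neighbours, 5 were called higher in R1, while the BID start, at 0.34 (SE 0.25, adjusted p = 0.43), was not. At MCL1, the start fell by 5.93 points in R1 and fell by 7.94 in R2, and its 45 neighbours moved by a median of -0.96 and 0.47. BCL2 moved by 9.82 and -15.4 points beside 2.97 and -0.97 for 6 neighbours, and BAX by 3.65 and -25.5 beside -4.44 and -1.63 for 80. These gaps depend on the distance taken: whole-chromosome medians were 10.6 and -0.87 for BCL2, and -12.0 and -11.1 for BAX. BAK1 moved by 5.73 and -5.23 beside 6.03 and 4.97 for 36 neighbours. PMAIP1 moved by 9.53 and -9.90 beside 11.7 and 1.84 for 3, and BCL2L11 by 2.11 and 0.88 beside 14.4 and 3.59 for 4. The strongest BBC3 start gained 4.68 and 12.5 points beside 0.78 and 0.05 for 34 neighbours. The strongest BCL2L2 start gained 2.15 and 2.53 beside -9.00 and -5.39 for 37. The region of the canonical BCL2L2 start moved by -8.47 and -8.78, much like these neighbours, and that of the canonical BBC3 start by 15.6 and 12.4.

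BCL2 carried both other called regions, and both lay deep in its second intron, far from its start. BCL2 is a gene of 196783 bases, and only 3 of its 50 regions held a peak in all 6 libraries. The first (chr18:63161673-63162114), 158 kb from the canonical start, also holds the start of a short annotated BCL2 transcript. It stood at percentile 41.2 and 32.7 in naïve, 1.24 and 1.43 in R1, and 12.8 and 37.9 in R2. Both R1 libraries lay near the bottom of the shared regions, below all 4 others. It held 24 and 15 summit tags in naïve, 38 and 27 in R1, and 9 and 12 in R2, which is 10.5 and 11.1, 4.79 and 4.97, and 10.6 and 13.4 times the background. A shared region needs a peak in every library. The lowest called summit was 6 tags in both R2 libraries and 7 in the second naïve library. At the R1 multiples of background, the expected summit tags in those libraries lie below these values, although counting error could lift a summit to them. The part of this limit in the difference was not tested. The log2 difference in R1 against naïve was -0.84 (SE 0.20, adjusted p = 0.022), and that in R2 -0.19 (SE 0.20, adjusted p = 0.63). R1 against R2 was -0.66 (SE 0.20, adjusted p = 0.077), and passed the threshold under median scaling (limma adjusted p = 0.0012), as did all resistant libraries against naïve (0.014). The call did not hold without any 1 of the 4 naïve and R1 libraries, with adjusted p from 0.067 to 0.24, nor with regions set by reciprocal overlap (0.13) or with regions found in at least 4 libraries (0.053).

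Part of this region is shown for its AP-1 site (TGANTCA on either strand, the site of FOS and JUN dimers, which FOSL1 and FOSL2 belong to). At chr18:63161870-63161999 (hg38, plus strand), the site is in capitals, and 2 of the 6 summits lie in this stretch. An AP-1 site was present in 10.9% of shared regions.
BCL2 intron, 158 kb from the start: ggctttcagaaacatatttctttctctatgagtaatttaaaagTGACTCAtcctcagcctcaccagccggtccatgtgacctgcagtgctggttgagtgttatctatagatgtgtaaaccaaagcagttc

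The other region (chr18:63218505-63218841), 101 kb from the start, was the strongest of the 3 in every library. It stood at 89.0 and 68.8 in naïve, 79.6 and 79.2 in R1, and 94.9 and 98.5 in R2. Both R2 libraries lay above the other 4. Its 34 and 49 summit tags in R2 were 40.0 and 54.5 times the background, and the 51 and 23 tags in naïve and 181 and 119 in R1 were 22.3 and 17.0, and 22.8 and 21.9 times. R1 was below R2 by 0.85 on the log2 scale (SE 0.22, adjusted p = 0.049), and R2 above naïve by 0.82 (SE 0.22, adjusted p = 0.071), which passed the threshold under median scaling (limma adjusted p = 0.030). The call against R1 was near the threshold and did not hold without the mean-variance trend (0.063), with reciprocal overlap (0.074), with regions found in at least 4 libraries (0.12), or without any 1 of the 4 R1 and R2 libraries (0.075 to 0.30).

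The sequence of this region is shown because it is repetitive. In the 300 bases around the summit (chr18:63218519-63218818, hg38, plus strand), the 10-base word TCCACTCATC occurs 10 times, where the median shared region has no word more than 1 time. All 6 summits fell in this window, within 59 bases of each other, and the peaks were 267 to 337 bases wide. The capitals mark a CCAAT box.
BCL2 intron, 101 kb from the start: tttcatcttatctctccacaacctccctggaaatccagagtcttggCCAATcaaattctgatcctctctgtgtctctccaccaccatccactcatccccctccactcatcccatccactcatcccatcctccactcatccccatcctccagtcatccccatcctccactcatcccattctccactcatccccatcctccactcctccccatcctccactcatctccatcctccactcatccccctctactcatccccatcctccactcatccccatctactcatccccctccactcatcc

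Repeated sequence went with the R2 signal elsewhere as well, a comparison chosen after the values were seen. Of the shared regions, 942 had a 10-base word at least 10 times in their window, and 43.0% of these were called between R1 and R2, against 6.60% of all shared regions. Their median log2 difference was -0.65 in R1 against R2 and 0.38 in R2 against naïve, beside 0.04 and -0.02 over all shared regions, and 85.5% of them were lower in R1 than in R2. Its part in the BCL2 value was not tested.

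**Figure D4:**
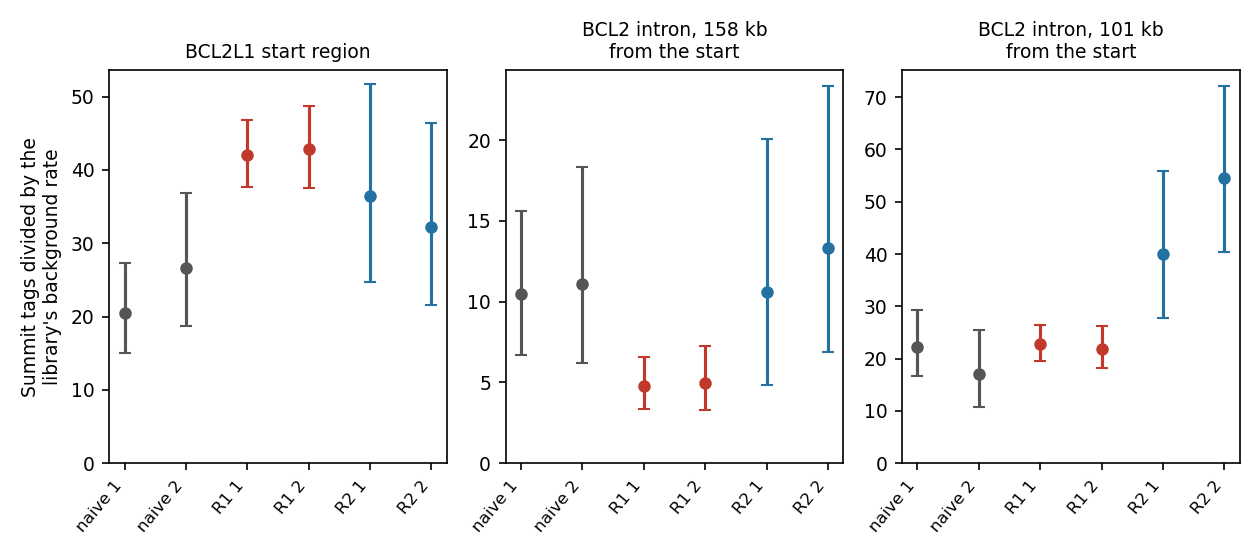
Summit tags divided by the background rate of each library (y axes, each starting at 0) in the 3 called regions, with exact 95% Poisson intervals that cover counting error only. BCL2L1 reaches 42.1 and 42.9 in R1, the BCL2 region at 158 kb stands at 4.79 and 4.97 in R1, and that at 101 kb reaches 40.0 and 54.5 in R2.

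Most regions of the family were seen in R1 alone, as were most regions of the genome. Of the 228 regions, 159 (69.7%) had a peak in 1 or both R1 libraries and nowhere else, against 67.1% of all regions, and depth and cell type cannot be told apart here. BCL2 had 42 such regions of 50 and BCL2L1 46 of 55, many of them spread over their introns. A peak in all 4 resistant and neither naïve library was found in 1 region of the family, against 0.245% of all regions. It lay in BCL2L1 intron 2 (chr20:31669471-31671728), 51.4 kb from the canonical start. It ranked at percentile 82.2 and 79.0 of all peaks in R1 but only 15.6 and 4.38 in R2, where 8 and 7 tags stood just above the lowest called value of 6 tags. A naïve-only peak was found at 1 of the 228 regions, at BCL2L2 (13 tags in 1 library), against 2.63% of all regions. An R2-only peak was found at 1, at MCL1 (9 tags in 1 library), against 0.665% of all regions. No region of the family was found in both naïve libraries and no resistant one, against 0.174% of all regions.

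**Figure D5:**
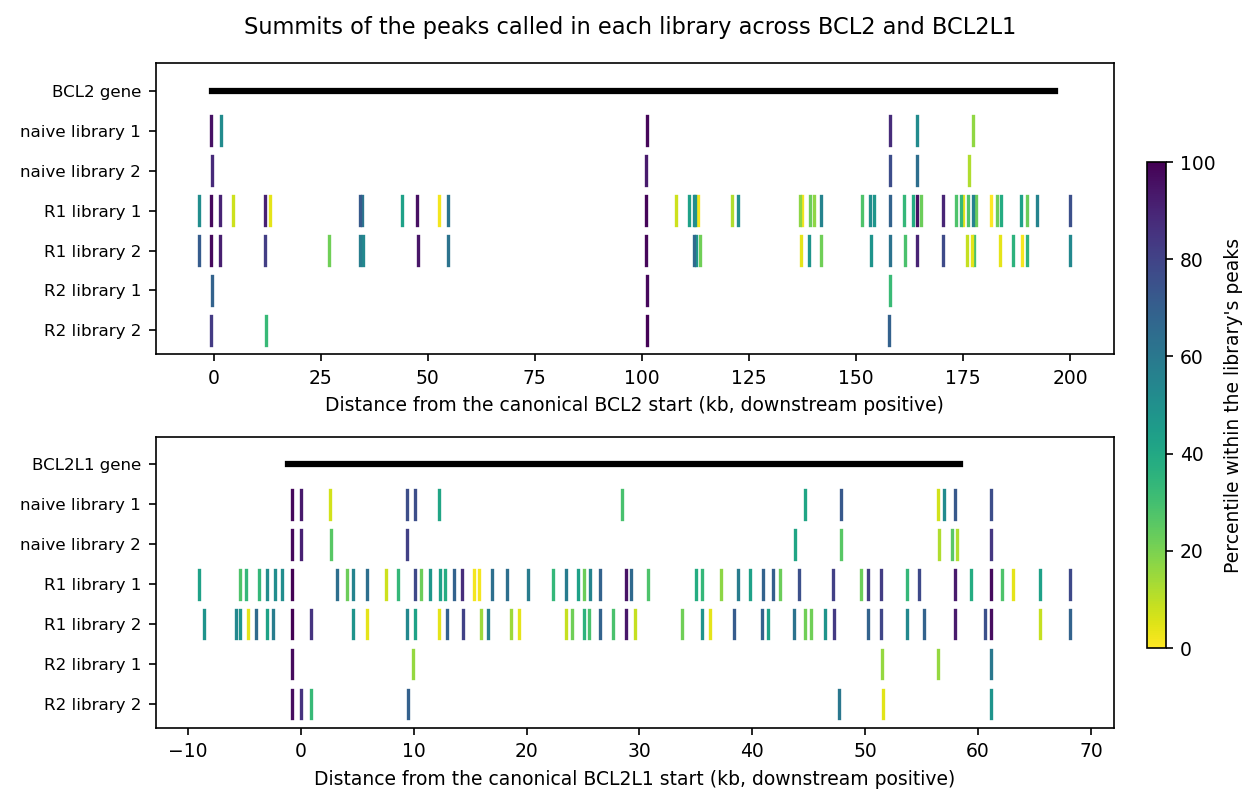
Summits of all peaks called in each library (rows) across BCL2 and BCL2L1, by distance from the canonical start in kb (x axes), colored by percentile within the library's own list, with the gene as a black bar. The R1 rows hold most of the peaks, and the BCL2 start and the regions 101 and 158 kb downstream are marked in all 6 rows.

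Start regions that ranked most like that of BCL2L1 over the 6 libraries, of 13343 compared, were those of LAP3 on chromosome 4, LPIN2 on chromosome 18 and TOM1 on chromosome 22, with mean absolute differences of 1.23, 1.25 and 1.26 percentile points.

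The other genes of the pathway were taken as 2 lists. Of 11 further genes with BCL2 homology domains, 6 had a start region in all libraries (BCL2L12, BCL2L13, BOK, BAD, BMF and HRK), and 0 of the 6 were called by limma in any comparison, where 10.1% of all start regions were called in R1 against naïve, 2.32% in R2, 934 of 13344 in all resistant libraries and 3.57% in R1 against R2. At an unadjusted p under 0.05, 1 of the 6 passed in R1 against R2, beside 19.0% of all start regions, and 0 in the others. Of 18 genes that act downstream at the mitochondrial pore and the caspases, 15 were measured. In R1 against naïve, 1 of the 15 was called higher and 0 lower, against 10.1% of all start regions called in either direction. BIRC2, which encodes the ubiquitin ligase cIAP1, stood at 48.2 and 19.4 in naïve, 87.4 and 76.6 in R1, and 22.3 and 45.3 in R2, a difference of 1.00 (SE 0.24, adjusted p = 0.023). Both R1 libraries lay above the other 4. In R2, and in all resistant libraries together, 0 of the 15 were called by limma, beside 2.32% and 934 of 13344 of all start regions, and 2 and 1 had an unadjusted p under 0.05, beside 18.8% and 24.2%. In R1 against R2, 2 of the 15 were called higher, BIRC2 and VDAC1, against 3.57% of all start regions called in either direction. At an unadjusted limma p under 0.05, 6 of the 15 passed in R1 against R2, beside 19.0% of all start regions. In R1 against naïve 4 passed, beside 26.5%.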

How the data were processed

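ATAC-seq peak lists of 6 SK-N-AS libraries (naïve, R1, R2, 2 each) were analysed. The authors aligned reads with BWA 0.7.12-r1039, marked duplicates with Picard 1.65, filtered with SAMtools 1.3.1, left out mitochondrial reads, offset ends by +4 and -5 bases and called peaks per library with MACS2 2.2.7.1 at a q of 0.01, extending reads to 200 bases (versions from the submitters' processing notes). The methods name hg19 and the notes hg19 and hg38. All peaks lie within hg38 chromosomes and hg38 with GENCODE 44 was used. The deposited fold enrichment is a ratio to background, and the deposited −log10 p and −log10 q are those of the authors' peak caller.

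Background rate and whole summit tags were recovered from the steps of the deposited fold alone, with the fold taken as tags plus 1 over rate plus 1 and the result checked against the deposited p, with 100% of folds whole within a tolerance of 0.01, and scripts were tested on simulated data. The lowest called summit was 6 to 18 tags by library. Percentiles by fold and by p were equal at these genes. A region's value is that of its best peak in each library. limma 3.58.1 (R 4.3.3) fitted 3 groups with 3 residual degrees of freedom, and calls were made at a Benjamini-Hochberg adjusted p under 0.05. Start regions lie within 1000 bases of a protein-coding transcript start. Named singly were each gene's own start region (the one with the best mean percentile where there were several), called regions, regions whose resistant and naïve percentiles did not overlap and differed by at least 20 points, for genes without a shared region the one in most libraries, the 3 nearest genes on each side of BCL2L1 with a shared start region, the 3 starts ranking most like it, and at most 5 called genes of each other list. Regions named outside this rule (canonical starts of BCL2L2 and BBC3, regions found in some groups only) and the comparison of repeated words were chosen after their values were seen. The members and lists were chosen with earlier results of these data known. A listed gene is not reported here and was left out of its list's counts. Alternatives were median scaling, fold in place of tags, −log10 q of at least 5, anchored regions, regions in at least 4 libraries, windows of 0 and 50 kb, no trend, a replicate block and leaving out each library. Motifs were searched on both strands, each as a plain match that may overlap another: the GC box, CCAAT box, AP-1 site and E-box as spelled with the results, the CRE (TGACGTCA), a CTCF core and a p53 element. The TATA box was searched as TATAAA. Promoter sequences are from RefSeq on hg38. Intervals cover counting error only.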

Additional observations from a re-analysis of the deposited data

Results flagged for a closer look

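The resistant cultures R1 and R2 were tested against each other across all shared regions. Called as different were 1 of the 29 regions of the family and 2 of the 21 other apoptosis genes measured. The family's share, 3.45%, was below the 6.60% of all shared regions called in this comparison. Of all start regions, 3.57% were called. The BCL2 intron region 101 kb from the start differed by -0.85 (log2, R1 minus R2, adjusted p = 0.049 by limma), and against naïve R1 stood at -0.03 and R2 at 0.82. VDAC1, a channel of the outer mitochondrial membrane, differed by 0.98 (adjusted p = 0.032), with 0.28 in R1 and -0.70 in R2 against naïve, neither of them called. BIRC2 differed by 1.02 (adjusted p = 0.031), with 1.00 in R1 and -0.01 in R2. The R2 libraries were the shallowest and the R1 libraries the deepest, and depth and cell type cannot be told apart in this comparison.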

How the results depend on the processing

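Each group had 2 libraries, which limits every call. The other scalings and region sets that were planned moved the counts as follows. Under median scaling in place of quantile normalization, the called regions of the 10 genes went from 2 to 4 in R1 against naïve. They went from 0 to 1 in R2, 0 to 3 in all resistant libraries and 1 to 4 in R1 against R2. The 3 calls of the report were among them. Calls over all shared regions rose from 11.6% to 21.5% in R1 and from 3.37% to 4.09% in R2. They rose from 7.86% to 11.5% in all resistant libraries and from 6.60% to 16.0% in R1 against R2. Other apoptosis genes called in any comparison went from 2 to 5. The BCL2 start in resistant against naïve went from -0.04 to 0.0318. With regions anchored on the first R2 list at an overlap fraction of 0.5, 5 regions of the genes were tested, the BCL2L1 start not among them, and 0 were called in R1 and 0 in R1 against R2, beside calls over all regions of 13.8% in R1, 5.48% in R2 and 15.0% in R1 against R2. With regions found in at least 4 libraries, 1 was called in R1, 1 in all resistant libraries and 0 in R1 against R2, and calls over all regions fell to 5.62%, 4.16% and 1.47%, and to 1.34% in R2. Without a mean-variance trend, 0 were called in R1 against R2, beside 6.06% of all regions. The median percentile of the start regions was 94.2 in the whole lists and 75.1 among shared regions, and regions without overlap numbered 2 and, by rank in the whole lists, 1. BCL2L1 against its neighbours went from -7.96 points to 0.159 on the log2 scale. The stricter peak threshold moved no count of called regions. The other windows moved none either, but they change only which regions are assigned to the genes, not the fit. The deposited fold in place of tags could not move a count. Tags plus 1 are the fold times a constant of each library, which quantile normalization removes.

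With each library left out in turn, the called regions ranged from 0 to 3 in R1, 0 to 0 in R2, 0 to 1 in all resistant and 0 to 1 in R1 against R2, regions without overlap from 2 to 14, other apoptosis genes from 0 to 5, and BCL2L1 against its neighbours from -11.3 to -4.57, with no permutation test run where 1 naïve library was left. Both ends of that range, and the 14 and 13 of 29 regions without overlap, came from leaving out a naïve library. In those 2 settings, 50.6% and 50.5% of all shared regions had no overlap. Leaving out a resistant library gave 2 to 7 of 29, beside 30.3% to 37.9% of all shared regions. Calls over all regions ranged from 0.716% (without the first R1 library) to 14.7% in R1, from 0% (without the first naïve library) to 0.936% in R2, from 0% (the same) to 8.60% in all resistant libraries and from 1.04% (without the first R1 library) to 5.73% in R1 against R2. Resistant against naïve, start regions whose sign turned ranged from -0.0164 to 0.147 at BCL2L11, -0.0744 to 0.461 at BBC3, -0.103 to 0.158 at BAK1, -0.176 to 0.212 at PMAIP1, -0.260 to 0.174 at BCL2 and -0.469 to 0.0537 at BAX, and none of these was called. Over all settings, the limma adjusted p ran from 0.0059 to 0.19 for BCL2L1 in R1, from 0.00055 to 0.24 for BCL2 at 158 kb and from 0.022 to 0.30 for BCL2 at 101 kb.

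The replicate numbers did not pair the libraries: deviations of like-numbered libraries correlated at 0.055 (naïve with R1), -0.023 (naïve with R2) and -0.0010 (R1 with R2). With the number as a replicate block, 2, 0, 0 and 1 regions of the genes were called in R1, R2, all resistant and R1 against R2, as without it. Calls over all regions were then 12.8%, 4.23%, 8.61% and 7.49%.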
